A study of Mus musculus with 2 samples.

Results

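The opioid system of the spinal cord was followed here through 7 genes, chosen by name from the 32285 genes of the deposited matrices. They are the peptide precursor genes Penk, Pdyn and Pnoc and the receptor genes Oprm1, Oprd1, Oprk1 and Oprl1. All 7 were present in both matrices, and 0 measured values were used to choose them. The nuclei came from the spinal cords of 3 male iNeuroD1GFP mice, aged 8 weeks by the labels, that were injured at postnatal day 60. Tamoxifen (100 mg/kg/day) was given on days 5 to 8 after the injury, and the tissue was taken on day 10. The genotype, the injury and the tamoxifen were shared by both groups, and no untreated, uninjured or non-transgenic group was analysed here. The 2 groups are the core of the lesion and another region, called distal in the sample titles and peri-injury in the extraction protocol. The labels do not say which promoter or cell type drives NeuroD1, or whether the 3 mice were pooled. Each region gave 1 library of single nuclei (10x Genomics 3′ chemistry), so no value has a replicate.

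Opioid peptides are cut from larger precursors in dense core granules and act on G protein-coupled receptors that lower transmitter release and neuronal firing. Penk yields enkephalins, Pdyn yields dynorphins and Pnoc yields nociceptin. Oprm1, Oprd1 and Oprk1 encode the mu, delta and kappa receptors, and Oprl1 encodes the nociceptin receptor. In the dorsal horn, the sensory part of the cord, these peptides and receptors are known for damping pain and itch signals. The precursors Penk and Pdyn share a short opioid core that the receptors bind, which Pdyn carries in several copies. The coding bases of the Leu-enkephalin core in the 3 copies of Pdyn (GENCODE M21, transcript Pdyn-201, 5′ to 3′) are shown because they are the part of the gene that makes it an opioid gene. Capitals mark the core and lower case the flanking pairs of basic codons:
Pdyn copy 1: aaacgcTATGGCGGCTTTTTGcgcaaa
Pdyn copy 2: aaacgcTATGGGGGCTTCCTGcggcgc
Pdyn copy 3: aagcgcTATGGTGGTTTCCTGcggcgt
Copies 1 and 2 differed at 3 of 15 core bases, copies 1 and 3 at 4, and copies 2 and 3 at 2.

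On GRCm38 (GENCODE M21) the peptide genes lie on the minus strand: Penk at chr4:4133531-4138819, Pdyn at chr2:129686565-129699844 and Pnoc at chr14:65400673-65425472. The receptor genes Oprm1 (chr10:6758506-7038198), Oprk1 (chr1:5588466-5606131) and Oprl1 (chr2:181715016-181720985) lie on the plus strand, and Oprd1 (chr4:132110726-132144486) lies on the minus strand. Genes on the opposite strand overlap 2 of them, A830012C17Rik at Penk and Ipcef1 and Gm10945 at Oprm1. The labels and headers do not say whether the counting used strand, and whether it kept the reads of each pair apart was not tested. Nuclear RNA holds unspliced transcripts and Oprm1 spans 279.7 kb against 5.29 kb for Penk, so levels are compared within a gene and never between genes.

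Windows from 250 bases before to 50 after a start site are shown for Oprm1 (1 of its 3) and Oprd1, because these 2 receptor genes were called in opposite directions between inhibitory and excitatory neurons in both libraries. NeuroD1, which the mice were built to express, belongs to a family of factors that bind E-boxes, so the E-box letters CANNTG, which read the same on both strands, are in capitals (RefSeq, GRCm38.p6):
Oprm1, chr10:6788320-6788619, plus strand: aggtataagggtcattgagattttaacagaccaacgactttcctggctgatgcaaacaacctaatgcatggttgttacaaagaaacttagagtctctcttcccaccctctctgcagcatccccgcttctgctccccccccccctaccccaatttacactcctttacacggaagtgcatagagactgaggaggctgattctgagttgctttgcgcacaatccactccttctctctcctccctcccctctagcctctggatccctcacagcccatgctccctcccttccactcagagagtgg
Oprd1, chr4:132144437-132144736, minus strand: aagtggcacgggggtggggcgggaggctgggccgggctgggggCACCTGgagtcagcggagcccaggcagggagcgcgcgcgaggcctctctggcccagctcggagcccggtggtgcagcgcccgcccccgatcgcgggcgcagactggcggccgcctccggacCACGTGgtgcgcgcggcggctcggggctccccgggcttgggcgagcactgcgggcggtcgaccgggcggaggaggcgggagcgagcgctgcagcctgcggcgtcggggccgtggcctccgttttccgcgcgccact
The Oprd1 window held 2 E-boxes and the Oprm1 window 0. The table held 9 windows for 4 of the 7 genes (Pdyn, Oprm1, Oprd1 and Oprl1), of which 3 held an E-box, against 72.3% of all 32851 windows. The cyclic AMP response element TGACGTCA was in 0 of the 9 and in 1.79% of all windows. These are matches of letters in a window of fixed length. The Oprm1 windows that start at chr10:6788320 and chr10:6788326 overlap almost in full, so the 9 windows are not separate promoters. Their E-box count is therefore not read as lower than that of all windows.

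The core library held 16362 barcodes and 30469263 UMIs, and the distal library held 7452 barcodes and 19049572 UMIs. The libraries shared 38 barcodes, of which 0 had identical counts. Clusters made without the 7 genes gave 8802 core and 1965 distal neurons. These comprised 2907 and 1140 excitatory-like, 1574 and 326 inhibitory-like, 34 and 62 cerebrospinal fluid (CSF)-contacting-like and 93 and 29 cholinergic-like neurons. The other 4194 core and 408 distal neurons met none of these rules and are called unresolved. Their subclusters 0, 1 and 10 leaned to inhibitory markers, at -0.71, -0.42 and -1.12 in log2 of excitatory over inhibitory. Subcluster 10, with 335 of the distal nuclei, passed the limit of 1 but had 2 markers of other classes among its 10 leading genes. Core oligodendrocytes numbered 14, and the other core glial classes 44 to 77, so glial levels are read from the distal library. Another 6239 core barcodes formed a background-like cluster whose nuclei varied little more than sampling from 1 shared profile would make them. Clusters with markers of 2 classes, 880 core and 1144 distal barcodes, were set aside as mixed. They held 19.4% (Pnoc) to 31.1% (Oprm1) of a member's distal UMIs and 6.28% (Penk) to 14.2% (Pdyn) of its core UMIs. Class levels leave these UMIs out. The core and distal neurons also differed in cord level genes: Hoxd11 had 392 UMIs in core neurons and 0 in distal neurons, and Hoxd10 had 124 and 0. Cord level, dissection and injury core cannot be told apart in any difference between the libraries.

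Levels are given in CPM, the UMIs of the gene per 1000000 UMIs of the class, with exact Poisson 95% intervals. Shares are given with exact Clopper-Pearson 95% intervals, and ratios with exact conditional 95% intervals. All of them cover counting error only. Where a gene had 0 UMIs, the level it allows is that of 3 UMIs in the class. A gene was tested where it had at least 10 CPM in 1 of the 2 sums, and called where its ratio was at least 1.5-fold, in either direction, with an interval that left out 1. With 1 library a region there is no test over samples, and p-values are not given.

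In distal neurons the receptor genes stood above the level found in distal oligodendrocytes, which served as the level of free RNA for neuronal genes. Whether oligodendrocytes make RNA of these genes themselves was not tested. Oprm1 had 86.8 CPM (79.3 to 94.9, 487 UMIs) in distal neurons and 12.3 CPM (9.04 to 16.5, 46 UMIs) in oligodendrocytes, a ratio of 7.04 (5.19 to 9.74). Oprd1 had 13.4 CPM in neurons and 1.61 CPM in oligodendrocytes, a ratio of 8.31 (3.64 to 23.4). Oprk1 had 15.9 and 3.22 CPM, a ratio of 4.93 (2.69 to 9.90). Oligodendrocytes held less neuronal RNA than other glia (3650 CPM of 7 summed neuron markers, against 9346 CPM in myeloid nuclei and 10523 CPM in astrocytes), and are not a measure of the free RNA in every class. Penk was the least set apart, with 15.5 CPM (12.4 to 19.1) in neurons against 9.66 CPM (6.76 to 13.4) in oligodendrocytes, a ratio of 1.61 (1.08 to 2.44). These 4 genes were the only members tested in this comparison and all 4 were called higher in neurons, where 28.3% of the 10249 genes tested were called higher. Oprl1 at 9.99 against 1.88 CPM (ratio 5.32, 2.42 to 13.8), Pnoc at 5.17 against 1.34 (3.85, 1.48 to 12.8) and Pdyn at 2.85 against 0.805 (3.54, 1.015 to 19.0) lay under the minimum.

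Detection of single genes was sparse. In distal neurons, Oprm1 had a UMI in 349 of 1965 nuclei (17.8%, 16.1 to 19.5), against 2.31% (1.67 to 3.12) of 1815 oligodendrocytes, at medians of 2275 and 1754 UMIs per nucleus. The other 6 genes were detected in 0.814% (Pdyn) to 4.22% (Penk) of distal neurons and in 0.165% (Pdyn) to 1.98% (Penk) of oligodendrocytes. After each nucleus was thinned to 1000 UMIs, Oprm1 was detected in 7.58% of distal neurons and 1.10% of oligodendrocytes. In core neurons Oprm1 was detected in 12.97% (12.3 to 13.7) of nuclei and in 6.18% after thinning. At least 1 of the 7 genes had a UMI in 2245 of 8802 core neurons (25.5%) and in 576 of 1965 distal neurons (29.3%). These neurons were deeper than the rest, at a median of 2355 against 1775 UMIs in the core and 2939 against 2029 in the distal library.

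**Figure D1:**
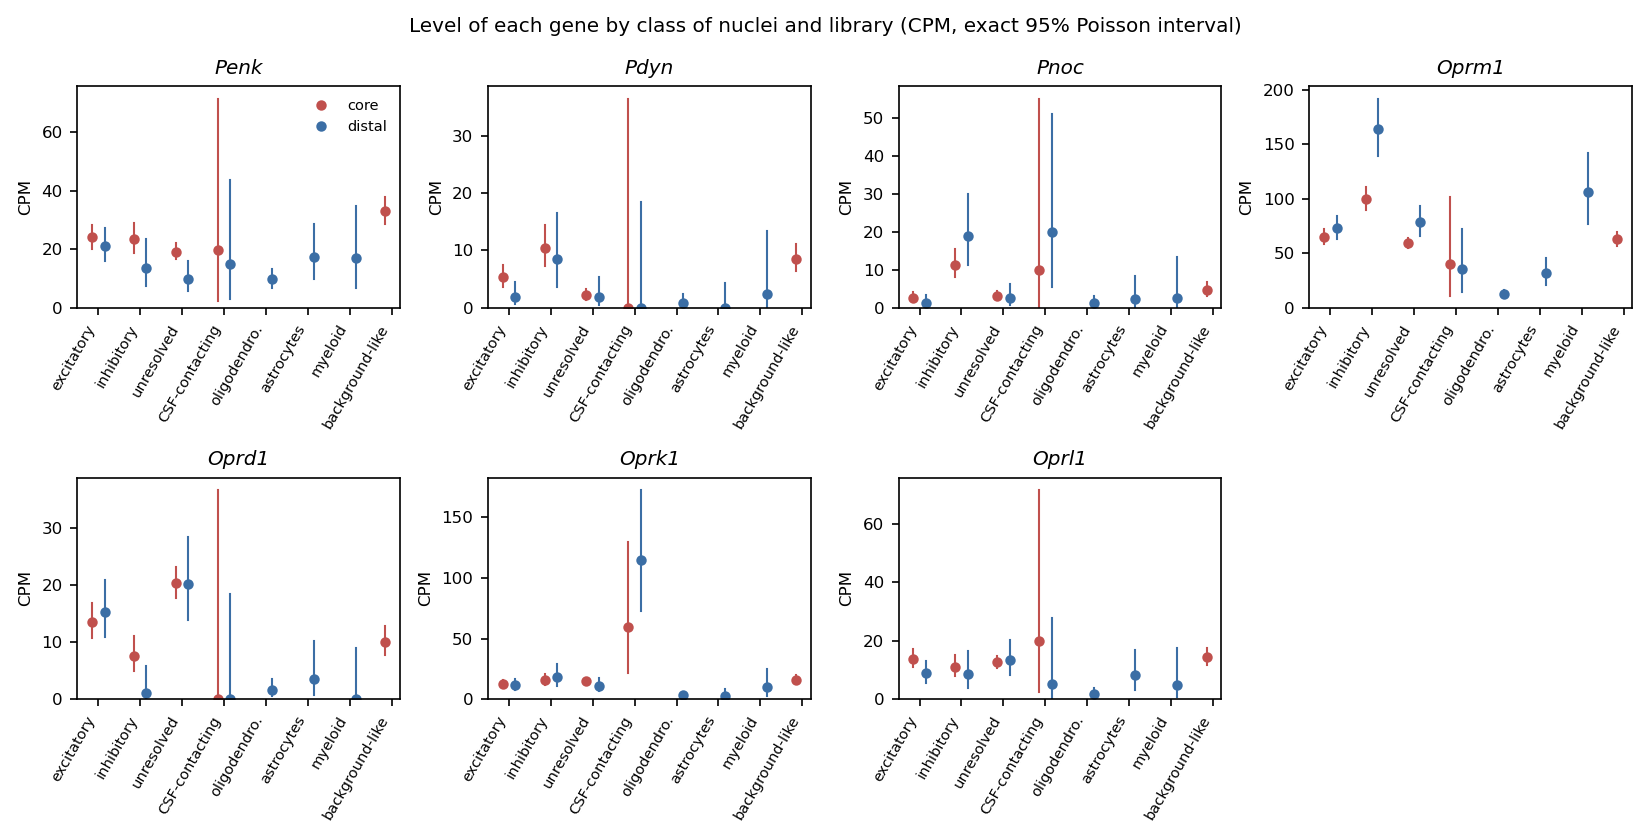
Level of each gene in CPM (linear axis from 0, scaled per gene) in classes of nuclei of the core (red) and distal (blue) libraries. Points are CPM of the summed class, bars are exact 95% Poisson intervals, and classes under 100 nuclei in a library are left out except CSF-contacting neurons. Oprm1 reached 164 CPM in distal inhibitory neurons and 106 CPM in distal myeloid nuclei, and Oprk1 reached 115 CPM in distal CSF-contacting neurons.

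The core library held 6239 background-like barcodes and the distal library 52, and in the core their neuron markers summed to 24011 CPM against 23031 CPM in neurons. In the core these barcodes had a median of 932 UMIs, against 1894 in neurons, and neurons were the best-scoring class of their cluster. Whether they include shallow neurons was not tested. Penk had 21.1 CPM (19.1 to 23.2, 425 UMIs) in core neurons and 33.0 CPM (28.7 to 37.8, 207 UMIs) in background-like barcodes, a ratio of 0.639 (0.540 to 0.758). Penk was therefore lower in the neurons than in the background-like barcodes, and 30.2% of all Penk UMIs of the core lay in the latter. Pdyn went the same way, with 4.42 and 8.45 CPM (ratio 0.522, 0.368 to 0.749), below the minimum. Oprd1 was called higher in core neurons, at 15.9 against 10.05 CPM (1.58, 1.203 to 2.10). Oprm1 (1.077, 0.962 to 1.21), Oprk1 (0.893, 0.710 to 1.13) and Oprl1 (0.871, 0.682 to 1.12) were called in neither direction. Of the 5 members tested 2 were called, where 6.68% of 9204 genes were. Over all core neurons, Oprd1 was thus the one member called above the background-like level. Unresolved neurons held 215 of its 320 UMIs and were called higher (2.02, 1.52 to 2.72). Core excitatory neurons were not called for Oprd1 (1.35, 0.952 to 1.91).

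Among peptide genes, Pnoc separated inhibitory from excitatory neurons most strongly. In the distal library Pnoc had 18.9 CPM (11.2 to 29.9, 18 UMIs) in inhibitory neurons and 1.145 CPM (0.236 to 3.35, 3 UMIs) in excitatory neurons, a ratio of 16.5 (4.83 to 87.7). In the core library it had 11.3 CPM (8.02 to 15.4, 39 UMIs) and 2.46 CPM (1.34 to 4.12, 14 UMIs), a ratio of 4.59 (2.44 to 9.16). Inhibitory neurons were the higher class in both libraries. The excitatory level was near the 1.34 CPM of distal oligodendrocytes, and the core inhibitory level exceeded the 4.62 CPM of the background-like barcodes (ratio 2.44, 1.47 to 4.09). Against background-like barcodes, 2 of the 7 members tested were called higher in core inhibitory neurons, Pnoc and Oprm1 (1.59, 1.37 to 1.84), where 6.07% of 9292 genes were. In core excitatory neurons 0 of 5 were called higher, where 5.99% of 9225 genes were. No member tested was called lower in core inhibitory or excitatory neurons than in background-like barcodes. Against oligodendrocytes, 3 of 4 were called in distal inhibitory neurons, Pnoc (14.1, 5.05 to 48.7), Oprm1 (13.3, 9.52 to 18.9) and Oprk1 (5.56, 2.50 to 12.8), where 50.7% of 10312 genes were.

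Pdyn leaned the same way on few counts. It had 10.4 CPM (7.30 to 14.4, 36 UMIs) in core inhibitory and 5.27 CPM (3.55 to 7.52, 30 UMIs) in core excitatory neurons, a ratio of 1.98 (1.18 to 3.33). In the distal library 8 and 5 UMIs gave 8.42 and 1.91 CPM, a ratio of 4.41 (1.27 to 17.1), below the minimum. The core inhibitory level was not separable from the background-like 8.45 CPM (1.23, 0.784 to 1.92). Penk did not separate the 2 kinds, at 23.4 and 24.05 CPM in the core (0.9747, 0.731 to 1.29) and 13.7 and 21.0 CPM in the distal library (0.652, 0.327 to 1.21).

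Among receptor genes, Oprm1 was higher in inhibitory and Oprd1 in excitatory neurons. Oprm1 had 164 CPM (139 to 192, 156 UMIs) in distal inhibitory and 72.9 CPM (62.9 to 84.0, 191 UMIs) in distal excitatory neurons, a ratio of 2.25 (1.81 to 2.80). In the core it had 100.1 CPM (89.8 to 111) and 65.1 CPM (58.7 to 72.1), a ratio of 1.54 (1.32 to 1.78). A UMI of Oprm1 was found in 31.0% (26.0 to 36.3) of distal inhibitory nuclei and 12.5% (10.7 to 14.6) of distal excitatory nuclei, and after thinning in 15.6% and 5.53%. The core and distal ratios differed by a factor of 0.683 (0.528 to 0.883, log-scale interval from the 4 counts). With these classes, the inhibitory excess was thus smaller in the core library than in the distal one beyond counting error. It depended on the classes: with each nucleus classed by its own markers the ratios were close, at 1.21 in the core and 1.25 in the distal library. Markers were also less cleanly parted in the core: the 5 inhibitory markers summed to 101 CPM in core and 34.0 CPM in distal excitatory neurons, with 0 of the 5 at 0 in both. Their part in the smaller ratio was not tested.

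Oprd1 had 1 UMI in 326 distal inhibitory neurons (1.05 CPM, 0.0267 to 5.86) and 40 UMIs in 1140 distal excitatory neurons (15.3 CPM, 10.9 to 20.8), a ratio of 0.0689 (0.0017 to 0.407). The single inhibitory UMI was at the oligodendrocyte level of 1.61 CPM. In the core it had 7.52 CPM (4.91 to 11.02, 26 UMIs) and 13.5 CPM (10.7 to 16.9, 77 UMIs), a ratio of 0.557 (0.342 to 0.878). The core inhibitory level was no higher than the 10.05 CPM of background-like barcodes (0.749, 0.455 to 1.2). Unresolved neurons had 20.3 CPM (215 UMIs) in the core, which lay above the interval of core excitatory neurons. In the distal library they had 20.1 CPM (13.9 to 28.3), with an interval that overlapped the excitatory one. Most distal unresolved neurons lay in subcluster 10, which leaned to inhibitory markers but was not counted as inhibitory. The distal ratio of 0.0689 leaves these nuclei out.

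Oprk1 had 15.9 and 12.5 CPM in core inhibitory and excitatory neurons (1.28, 0.881 to 1.84) and 17.9 and 11.5 CPM in distal ones (1.56, 0.808 to 2.93). Oprl1 had 10.99 and 13.7 CPM in the core (0.803, 0.530 to 1.198) and 8.42 and 8.78 CPM in the distal library (0.959, 0.371 to 2.22). Neither gene was called in either library. In the distal library 3 of the 5 members tested were called between the 2 kinds of neuron, where 14.7% of 9841 genes were. In the core 4 of 7 were called, where 9.59% of 9101 genes were. The median log2 ratio was 0.66 over the distal and 0.36 over the core members tested, against 0.04 and 0.01 over all genes tested.

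These calls rested on how neurons were grouped. With finer clusters (resolution 2.0) 0 of the 5 core members tested were called, and Oprd1 was not called in the distal library. With each nucleus classed by its own markers 0 were called in the core, and 1 in the distal library (Penk, lower in inhibitory neurons, 0.442), while Oprm1 stood at 1.21 in the core and 1.25 in the distal library and the core ratio of Pdyn turned to 0.831.

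**Figure D2:**
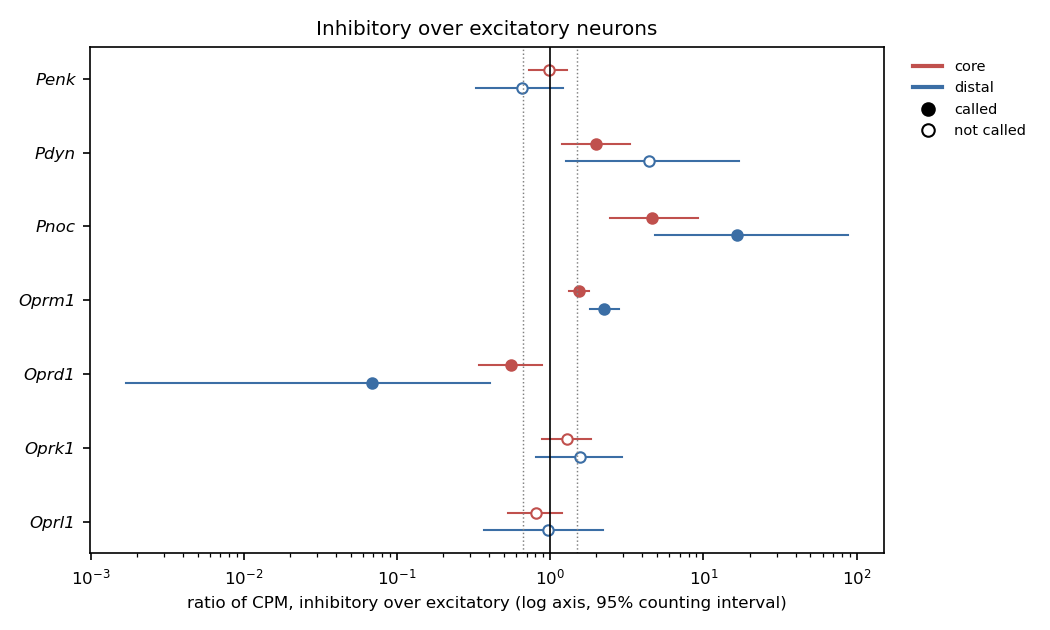
Ratio of CPM in inhibitory over excitatory neurons for each gene in the core (red) and distal (blue) libraries, on a log axis, with exact conditional 95% intervals that cover counting error only. Filled points are called, and dotted lines mark 1.5-fold in each direction. Pnoc and Oprm1 lie to the right and Oprd1 to the left of 1 in both libraries.

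Across neuron subclusters the genes took up different places. The subclusters below were singled out after their values were seen, so the ratios to the rest of the same class describe them and are no test. Subcluster 8, inhibitory and led by Gucy2d, held the highest level of both Pdyn and Pnoc among the 18 subclusters of at least 100 nuclei. Pdyn had 38.8 CPM there against 3.91 CPM in other inhibitory neurons of the core (ratio 9.91, 4.70 to 22.3), and 28.3 against 2.71 CPM in the distal library (10.5, 1.87 to 106). Pnoc had 21.7 against 8.89 CPM in the core (2.44, 1.17 to 4.88) and 42.5 against 12.2 CPM in the distal library (3.49, 1.23 to 9.91). Within single nuclei, 0 of 85 Pdyn-positive core neurons held Pnoc (upper 95% bound 4.25%), against 1.21% of Pdyn-negative neurons of like depth, and 1 of 16 did in the distal library. At this depth neither joint expression nor avoidance of the 2 genes was detectable.

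Pdyn had a second site in subcluster 5, which is excitatory and has Pou4f1, Cdh23 and Aldh1a2 among its leading genes. It had 19.5 CPM there (24 UMIs) against 1.34 CPM (6 UMIs) in other core excitatory neurons, a ratio of 14.5 (5.78 to 43.4). In the distal library only 45 nuclei of this subcluster were present, with 1 Pdyn UMI. Of the 18 subclusters 4 held 0 Pdyn UMIs.

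Penk was highest in 2 excitatory subclusters that share Sox5, Lmo3 and Ptger3 among their leading genes. In subcluster 2 it had 43.4 CPM against 17.4 CPM in other excitatory neurons of the core (2.49, 1.75 to 3.54) and 40.1 against 18.5 CPM in the distal library (2.16, 1.04 to 4.18). Subcluster 16 held 135 distal and 0 core nuclei and had 50.02 CPM against 17.2 CPM (2.90, 1.49 to 5.37). Tac1, the gene of the pain-related peptide substance P, is also among the leading genes of subcluster 16. So is Tsix, an X-linked gene that was left out of the clustering. Whether library or animal sets subcluster 16 apart from subcluster 2 was not tested. Penk-positive distal neurons held Tac1 in 9 of 83 nuclei (10.8%, 5.08 to 19.6), against 2.84% of Penk-negative neurons of like depth. In the core the shares were 3.95% (2.27 to 6.34) and 1.87%.

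Oprm1 had 3 high subclusters. In subcluster 13, inhibitory and led by Rxfp2, it had 157 CPM in the core and 293 CPM in the distal library, 1.71 (1.29 to 2.23) and 1.98 (1.29 to 2.95) times other inhibitory neurons. In subcluster 7, inhibitory with Gad1 and Pax2 among its leading genes, it had 126 and 222 CPM, 1.40 (1.12 to 1.76) and 1.46 (0.974 to 2.13) times other inhibitory neurons, both under 1.5-fold. In subcluster 9, excitatory and led by Bnc2, it had 131 and 179 CPM, 2.20 (1.63 to 2.92) and 2.95 (2.09 to 4.11) times other excitatory neurons. Its lowest level was the 13.3 CPM of the Penk-rich subcluster 16. Thus the high level of Oprm1 was not limited to inhibitory neurons.

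Oprd1 had its highest level in subcluster 4, excitatory and led by Nmu, which encodes the peptide neuromedin U. This subcluster held 45 of the 395 Oprd1 UMIs of neurons, while the unresolved subclusters 0, 1 and 10 held 157, 61 and 30 at 19.4, 22.3 and 21.5 CPM, and subcluster 9 had 25.4 CPM. In subcluster 4 it had 34.8 CPM against 10.7 CPM in other excitatory neurons of the core (3.25, 1.90 to 5.38) and 50.4 against 8.24 CPM in the distal library (6.12, 3.13 to 12.1). Oprd1-positive distal neurons held Nmu in 15 of 67 nuclei (22.4%, 13.1 to 34.2), against 5.31% of negative neurons of like depth. In the core, where Nmu was lower, the shares were 2.39% (0.966 to 4.86) and 1.61%. Oprl1 was the most even gene, from 6.67 to 16.01 CPM over the 18 subclusters.

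**Figure D3:**
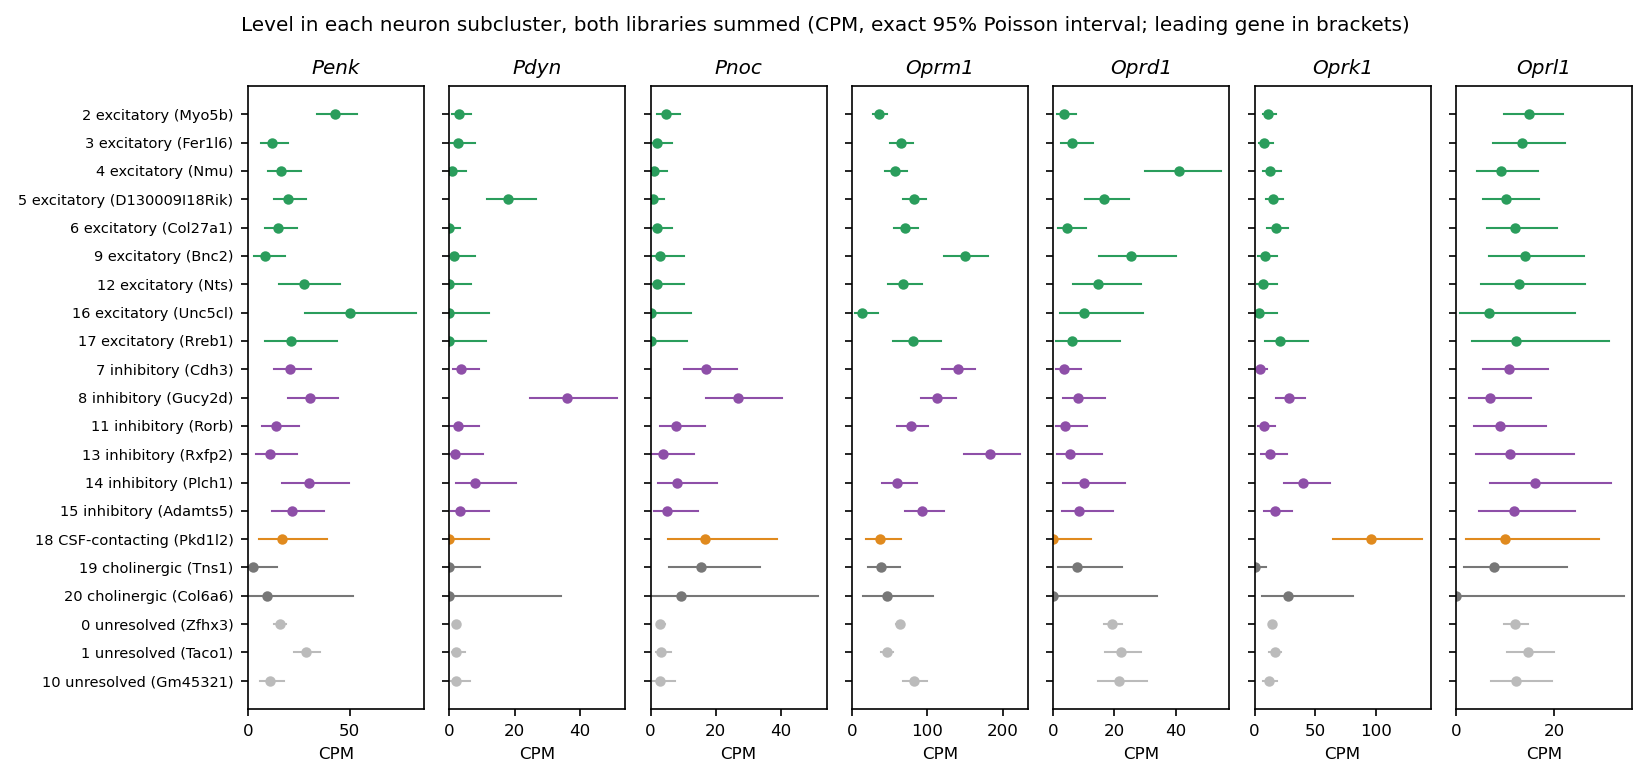
Level of each gene in CPM (linear axis from 0, scaled per gene) in the 21 neuron subclusters, both libraries summed, with exact 95% Poisson intervals. Colours mark excitatory (green), inhibitory (purple), CSF-contacting (orange), cholinergic (dark grey) and unresolved (light grey) subclusters, with each one's leading gene in brackets. Pdyn peaks at 36.2 CPM in subcluster 8, Oprd1 at 41.0 CPM in subcluster 4 and Oprk1 at 96.4 CPM in subcluster 18.

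The kappa receptor gene Oprk1 was highest in CSF-contacting neurons, cells that lie around the central canal and are marked by the channel genes Pkd2l1 and Pkd1l2. It had 115 CPM (72.9 to 173, 23 UMIs in 62 nuclei) in the distal library and 59.5 CPM (21.8 to 129, 6 UMIs in 34 nuclei) in the core. Inhibitory neurons had 17.9 and 15.9 CPM, so the ratios were 6.43 (3.29 to 12.8) and 3.74 (1.31 to 8.67). A UMI of Oprk1 was found in 24.2% (14.2 to 36.7) of distal CSF-contacting nuclei and 0.661% of oligodendrocytes. After thinning the shares were 14.04% and 0.183%. Of Oprk1-positive distal neurons 16 of 74 (21.6%, 12.9 to 32.7) held Pkd2l1, against 6.85% of negative neurons of like depth. Pkd2l1 itself was at 98.2 CPM in oligodendrocytes, so its UMIs alone mark no cell type here. CSF-contacting nuclei also held more summed oligodendrocyte marker RNA than inhibitory neurons, at 3205 against 1334 CPM in the distal library and 813 against 192 CPM in the core. Its part in these levels was not tested. TMM factors moved all ratios of distal CSF-contacting over inhibitory neurons by -0.24 on the log2 scale, the share of calls that were higher from 65.8% to 43.1%, and Oprk1 to 5.44 (2.78 to 10.8). In the core, the call ended without the nucleus with the most Oprk1 UMIs in each sum (2.59, 0.680 to 7.02) and at resolution 0.5 (3.23, 0.849 to 8.75).

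The other receptor genes did not follow Oprk1 in these cells. Oprm1 had 35 CPM (7 UMIs) in distal CSF-contacting neurons against 164 CPM in inhibitory ones (0.213, 0.0843 to 0.450). Oprd1 had 0 UMIs in both libraries, which at 3 UMIs allows up to 15 CPM in the distal and 29.7 CPM in the core nuclei. Of 4 members tested in the distal library 2 were called, Oprk1 and Oprm1, where 16.4% of 10156 genes were. In the core 1 of 6 was called, Oprk1, where 7.06% of 9404 genes were. With both libraries summed, the next highest level of Oprk1 was the 40.04 CPM of inhibitory subcluster 14, which has Npy, Ndnf and Qrfpr among its leading genes. It had 43.6 CPM there in the core (18 UMIs), 3.59 (1.92 to 6.46) times other inhibitory neurons, and 23.1 CPM in the distal library (2 UMIs), 1.33 (0.147 to 5.71) times. Distal nuclei of subcluster 8 were higher, at 42.5 CPM (9 UMIs), 3.92 (1.34 to 11.7) times other inhibitory neurons, as were those of excitatory subcluster 5, at 32.5 CPM (5 UMIs). In the core subcluster 8 had 23.3 CPM, 1.64 (0.839 to 3.03) times. The inhibitory subcluster with the highest Oprk1 level thus differed between the libraries, on few distal UMIs.

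Outside neurons, Oprm1 was the only member called higher in distal myeloid nuclei than in oligodendrocytes, of the 2 tested, where 28.0% of 10745 genes were. It had 106 CPM (77.0 to 142, 44 UMIs in 352 nuclei) in myeloid nuclei, against 12.3 CPM in oligodendrocytes (ratio 8.58, 5.55 to 13.3), 18.9 CPM in oligodendrocyte progenitors, 31.3 CPM (20.7 to 45.6) in astrocytes and 19.1 CPM in fibroblasts. The other scalings gave 6.31 and 6.33, and 3 alternatives with 164 to 180 Oprm1 UMIs in the myeloid class gave 3.42 to 4.50. TMM factors moved every ratio of this comparison by -0.44 on the log2 scale, and the share of calls that were higher from 69.95% to 45.8%. The share of myeloid nuclei with an Oprm1 UMI was 9.94% (7.02 to 13.6), at a median of 851.5 UMIs per nucleus. The 7 neuron markers summed to 9346 CPM in distal myeloid nuclei, 10523 CPM in astrocytes, 3650 CPM in oligodendrocytes and 17527 CPM in neurons, with 0 of the 7 at 0 in each. A myeloid marker was found in 26 of 35 Oprm1-positive (74.3%) and 210 of 317 Oprm1-negative (66.2%) myeloid nuclei. The positive nuclei held more summed neuron marker RNA than the negative ones (12251 against 8893 CPM) and less summed myeloid marker RNA (1088 against 1375 CPM), at medians of 914 and 843 UMIs. The part of neuronal RNA in the Oprm1 level of myeloid nuclei was not tested.

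The gene Ipcef1, which overlaps Oprm1 on the opposite strand, had the same high classes. Ipcef1 had 74.6 CPM (31 UMIs) in distal myeloid nuclei, 69.5 CPM (66 UMIs) in inhibitory neurons, 17.2 CPM in excitatory neurons and 6.98 CPM in oligodendrocytes. In the core it had 54.4 CPM in inhibitory and 15.8 CPM in excitatory neurons. If the counting ignored strand, reads from the shared stretch could have been counted for either gene. This was not tested, so the Oprm1 level of myeloid and inhibitory nuclei is uncertain to that extent. The 44 core myeloid nuclei had 3 Oprm1 UMIs, found in nuclei with 0 myeloid marker UMIs, and their C1qa and Mrc1 stood at 0. The other member tested was Penk, at 16.9 CPM (7 UMIs) in myeloid nuclei against 9.66 CPM in oligodendrocytes (1.74, 0.655 to 3.97).

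**Figure D4:**
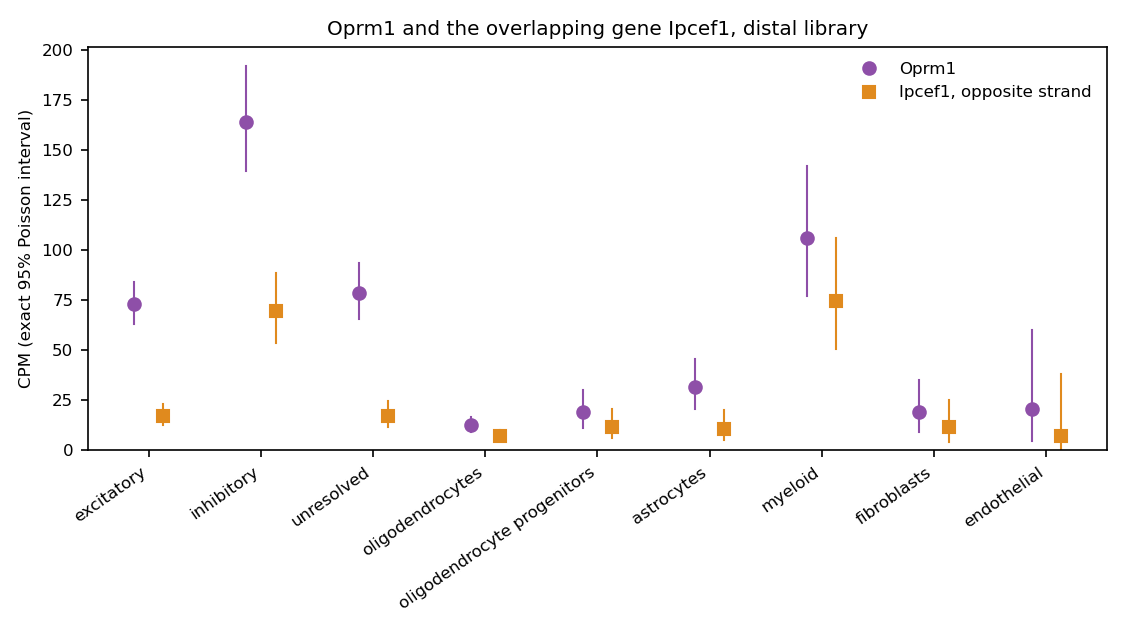
Level of Oprm1 (purple circles) and Ipcef1 (orange squares) in CPM (linear axis from 0) in 9 classes of the distal library, with exact 95% Poisson intervals. Both genes are highest in inhibitory neurons (164 and 69.5 CPM) and myeloid nuclei (106 and 74.6 CPM).

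In distal astrocytes, Penk had 17.4 CPM (9.75 to 28.7, 15 UMIs), Oprl1 8.13 CPM (7 UMIs), Oprd1 3.48 CPM (3 UMIs), Oprk1 and Pnoc 2.32 CPM each and Pdyn 0, which allows up to 3.48 CPM. Oprm1 was called higher than in oligodendrocytes (2.54, 1.52 to 4.17) and Penk was not (1.80, 0.917 to 3.38), of 2 members tested, where 26.9% of 10657 genes were. Oprl1 had a ratio of 4.33 (1.30 to 14.5) below the minimum. The part of the neuron transcripts in astrocytes, whose sum is given above, was not tested.

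Core and distal neurons were compared as whole classes. Penk had 21.1 CPM in core and 15.5 CPM in distal neurons, a ratio of 1.36 (1.077 to 1.73). Oprm1 had 67.8 and 86.8 CPM (0.781, 0.704 to 0.868). Both intervals left out 1, but neither ratio reached 1.5-fold. Oprd1 (1.19, 0.921 to 1.55), Oprk1 (0.907, 0.713 to 1.16) and Oprl1 (1.25, 0.934 to 1.70) had intervals that included 1. Pdyn at 4.42 and 2.85 CPM (1.55, 0.903 to 2.82) and Pnoc at 4.61 and 5.17 CPM (0.892, 0.583 to 1.405) were below the minimum. Of the 5 members tested 0 were called, where 16.7% of 9575 genes were. Leaving out the unresolved neurons, 4194 of which were core nuclei, or the low-variance subcluster 1 among them (1781 core and 18 distal nuclei) left 0 called, with Penk at 1.3 and 1.28.

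Within excitatory neurons 0 of 5 members were called, where 20.8% of 9521 genes were, and Oprl1 had the largest ratio among them, 1.56 (0.969 to 2.60). Within inhibitory neurons 1 of 6 was called, where 14.5% of 9625 genes were. This was Oprm1, at 100.1 CPM in the core and 164 CPM in the distal library (0.610, 0.503 to 0.741). It kept the call, between 0.578 and 0.665, under 7 alternatives and lost it when each nucleus was classed on its own (0.748). Penk in inhibitory neurons had 23.4 and 13.7 CPM (1.71, 0.947 to 3.35). In unresolved neurons, 19.1 CPM in the core and 9.77 CPM in the distal library gave a called ratio of 1.96 (1.18 to 3.495) for Penk, where 15.6% of 9640 genes were called. Different subclusters made up this class in the 2 libraries: 2395 and 1781 of the 4194 core nuclei lay in subclusters 0 and 1, and 335 of the 408 distal nuclei in subcluster 10, so the ratio compares different clusters. The 33.0 CPM of Penk in core background-like barcodes is of the order of these core levels, and its part in them was not tested.

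Scaling mattered for this comparison. The edgeR TMM factors raised all core over distal neuron ratios by 0.13 and median-of-ratios factors by 0.15 on the log2 scale. Within excitatory and inhibitory neurons TMM shifted ratios by 0.11 and 0.12, and Oprl1 in the former and Penk in the latter were then called higher in the core. Of the genes called in all neurons, 31.1% were higher in the core as scaled here, 52.9% with TMM and 56.4% with median-of-ratios factors, with which Penk was called at 1.51 (1.19 to 1.92). Relative to those shifts the directions of Penk and Oprm1 in neurons held.

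**Figure D5:**
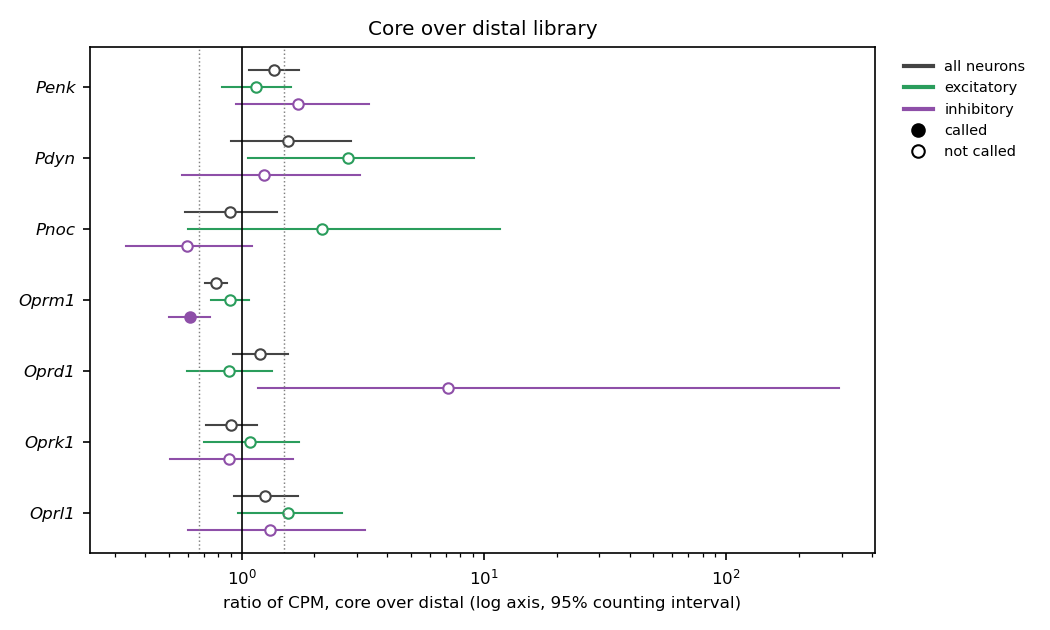
Ratio of CPM in the core over the distal library for each gene in all neurons (grey), excitatory (green) and inhibitory (purple) neurons, on a log axis, with exact conditional 95% intervals that cover counting error only. Filled points are called. Oprm1 in inhibitory neurons, at 0.610, is the only filled point.

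Other genes of the opioid pathway were read in the same comparisons. Between core and distal neurons, 0 of 10 genes of peptide processing and granules, 0 of 4 of opioid peptide breakdown, 0 of 5 inhibitory G protein alpha subunits and 0 of 10 desensitisation genes were called, where 16.7% of all genes tested were. Of 10 effectors 1 was called, the potassium channel gene Kcnj3, at 299 and 460 CPM (0.650, 0.621 to 0.681), a ratio that the TMM shift given above would bring within 1.5-fold. Of 3 other opioid-related genes, Pomc, Ackr3 and Ogfr, 0 reached the minimum. Of 11 neuron population genes that mark no class, Tacr1 was called higher in the core (1.83, 1.55 to 2.18) and 4 were called lower, with Nmu (0.227), Tac2 (0.521) and Sst (0.539) the furthest.

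Between inhibitory and excitatory neurons 4 pathway genes were called in the same direction in both libraries. Mme, the peptidase neprilysin that breaks down enkephalins, was lower in inhibitory neurons, at 20.0 and 79.0 CPM in the distal library (0.253, 0.149 to 0.405) and 28.4 and 48.4 CPM in the core (0.585, 0.460 to 0.740). Grk5, a receptor kinase, was also lower (0.448 and 0.582). Adcy8, an adenylyl cyclase (2.32 and 1.80), and Scg3, a granule protein gene (2.35 and 1.62), were higher. In the distal library the counts were 1 higher and 1 lower of 10 for processing, 0 and 1 of 4 for breakdown, 1 and 0 of 5 for G proteins (Gnaz, 1.64), 1 and 0 of 10 for effectors and 1 and 1 of 10 for desensitisation. In the core they were 1 and 0, 1 and 1 (Ece1 higher, 1.57), 0 and 0, 1 and 0, and 0 and 1. Over all genes tested, 14.7% of 9841 were called in the distal library and 9.59% of 9101 in the core. With so few called per list, the pathway lists are not read as set apart from these shares. Of neuron population genes that mark no class, 2 were higher and 7 lower in inhibitory neurons in each library, of 14 tested in the distal and 11 in the core. Rorb was the furthest up in both (7.08 and 3.71), and Nmu, Calb1 and Tac2 the furthest down.

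The genes whose levels over the 18 subclusters were most like a member's were named by Pearson's r of log2(CPM + 5), as a description over points that share libraries and depth. For Penk they were its overlapping gene A830012C17Rik (0.79), Setbp1 (0.75) and Kcnk2 (0.73). For Oprm1 they were Ext1 (0.83), Mgll (0.80) and Cntnap2 (0.80). For Oprd1 they were Chmp4b (0.80), Dcun1d4 (0.76) and Rffl (0.71), for Oprk1 Rad54l2 (0.86), Fbxo21 (0.83) and Slc1a1 (0.79), and for Oprl1 Luc7l (0.81), Tmem38a (0.75) and Nbr1 (0.74). Pdyn with 105 and Pnoc with 122 UMIs in neurons were below the 200 UMIs asked for.

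Co-detection of members with each other was near the level of like-deep negative neurons in most pairs. Oprm1-positive neurons held an inhibitory marker in 45.6% (42.7 to 48.6) of core and 39.8% (34.7 to 45.2) of distal nuclei, against 40.5% and 30.9% of Oprm1-negative neurons of like depth. Oprd1 and Oprl1 were found together in 18 core nuclei, 6.14% (3.68 to 9.54) of Oprd1-positive neurons against 3.39% of negative ones. In the distal library the shares were 7.46% (2.47 to 16.6) and 5.49%. Distal Oprl1-positive neurons held Oprm1 in 8 of 54 nuclei (14.8%, 6.62 to 27.1), against 27.6% of negative ones, while in the core the shares were 16.9% and 15.3%. A peptide gene and a receptor gene met in 129 core and 40 distal neurons.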

How the data were processed

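Single-nucleus RNA-seq matrices of raw UMI counts were used as deposited. Cell Ranger 7.1.0 made them, per the file headers, and the submitters' processing notes name Seurat and the builds mm10 and GRCh38 without roles. No source used here names the annotation. Barcodes under 300 genes or over 5% mitochondrial UMIs were dropped, which left 16360 core and 7443 distal barcodes at medians of 1303 and 1744 UMIs. Scrublet called 0 doublets and was taken not to have worked, so doublets were left in.

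Nuclei were clustered with scanpy 1.11.5 and leidenalg 0.10.2 without the 7 genes (2000 variable genes, 40 components, 15 neighbours, resolution 1.0, no integration), and neurons were clustered again. Neurod1, Xist, Tsix, several Y-linked genes and the mitochondrial genes were also left out of the variable genes. Classes were named from marker lists. The rules that set clusters aside (variance near sampling, excess depth, markers of 2 classes) were set and revised after the clusters had been seen. The limit on variance, first above subcluster 1, was lowered to 1.15, although that neuron subcluster has 1.143. The members, lists and comparisons were chosen with earlier results of these data known. Named genes are all 7 members, the 3 genes most like each member with at least 200 UMIs in neurons, and up to 3 called genes per list and direction.

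Counts were summed per class and library, and ratios were taken with scipy 1.17.1. The ratio and call steps were tested on simulated data. Alternatives were other filters, resolutions, class rules and scalings (edgeR 4.0.16 for TMM), and those with unresolved neurons left out, and all for CSF-contacting and myeloid nuclei, were added after seeing the data. No model across genes was fitted because each region is 1 library. Of 32285 features 32158 matched GENCODE M21.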

Additional observations from a re-analysis of the deposited data

How the results depend on the processing

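The count of members called between core and distal neurons was 0 under 10 alternatives and 1 with median-of-ratios factors. Between inhibitory and excitatory neurons, the distal count of 3 went to 1 with each nucleus classed on its own, and the core count of 4 went to 0 with that rule and to 0 at resolution 2.0. Between distal neurons and oligodendrocytes the count of 4 became 7 with no CPM minimum. The core Pdyn ratio of inhibitory over excitatory neurons reversed to 0.831 with each nucleus classed on its own. The cause was not tested. Of the planned recomputations of single ratios, 259 stayed the same: they kept the call or, where not called, stayed uncalled within the main interval. Another 13 lost the call, 11 gained it, 1 reversed (Pdyn, above) and 2 that were not called left the main interval. Uncalled ratios that stayed the same could still cross 1, as Oprd1 did for core over distal excitatory neurons (0.885, up to 1.18). Of the recomputations added after seeing the data, 34 stayed the same and 2 lost the call. Thinning to 1000 UMIs moved 43 shares of nuclei outside their intervals and left 13 inside, and the 500-gene minimum moved 1. Depth limits Pdyn and Pnoc most, with 16 and 29 UMIs in distal neurons. The CSF-contacting ratios could not be recomputed with each nucleus classed on its own, since that rule has no such class, and the Oprd1 ratio of core over distal inhibitory neurons had no value without the nucleus richest in Oprd1, which left 0 UMIs in the distal sum. No paired analysis was possible because each region gave 1 library.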
